A study of Homo sapiens with 60 samples.

Results

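Cells treated with the water extract of Polygalae Radix at 500 µg/mL (Polygalae 500, 3 libraries) were compared with cells treated with the water extract of Aucklandiae Radix at the same dose (Aucklandiae 500, 3 libraries). These are 6 of the 60 RNA-seq libraries of the series, picked by their labels alone, and every gene of the table entered the comparison. Both extracts are dried roots boiled in water, used in East Asian herbal medicine, and both groups were harvested after 24 h. The cells were A549, an established human lung adenocarcinoma line grown in RPMI medium with serum, and the labels name no genetic change in either group. No vehicle library enters this contrast, so it gives how the 2 extracts differed and not what either did relative to untreated cells. The same pair was also sequenced at 100 and 20 µg/mL, with 3 libraries in each group. All 18 of these libraries carry the same set number in their names (4). The series design text says that lower doses were used for extracts whose IC20 lay under 500 µg/mL, while all labels of both extracts state 500, 100 and 20 µg/mL, so the doses are those of the labels.

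Among the gene lists described here, those of cholesterol synthesis, the vacuolar ATPase and lysosomal membrane proteins held the highest shares of members that were higher with Polygalae. Lysosomes are acidic organelles that digest macromolecules with many kinds of hydrolase. The transcription factors TFEB and TFE3 switch on their genes by binding a palindromic E-box, and the folliculin complex, working with Rag GTPases at the lysosomal surface, keeps these factors in the cytosol while nutrients are ample. Cholesterol synthesis is switched on by SREBP2, a membrane-bound factor that is released when sterols in the endoplasmic reticulum run low, and sterol efflux is switched on by the nuclear receptor LXR when oxysterols accumulate.

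The 6 libraries held 18.7 to 29.6 M counts. Replicates of a group correlated with Pearson's r of 0.990 to 0.993 on log2 values, and none of the 6 pairs was close enough to be a copy of the same library (chi-square per degree of freedom 2.39 to 3.40). The first principal component of the 6 libraries held 31.5% of their variance, with all Polygalae 500 libraries on the negative side and all Aucklandiae 500 libraries on the positive side. Keratins 7, 8 and 18 and the aldo-keto reductase AKR1B10, which A549 cells express strongly, lay between 1786 and 3361 CPM in all 6 libraries (CPM, counts relative to the scaled total of the library). The remaining A549 and epithelial markers were less abundant, with AKR1C1 at 312 to 326 CPM, E-cadherin CDH1 at 28.0 to 35.6 CPM and EPCAM at 3.97 to 5.94 CPM. Of 14 markers of fibroblasts, endothelium and blood, 11 reached at most 0.316 CPM in any of the 6 libraries, CD3E and HBB were at 0 in all of them, and the 14 together summed to 6.47 to 6.85 CPM in Polygalae 500 and 8.55 to 9.92 CPM in Aucklandiae 500. Each level is a share of its library, so a change in total RNA per cell would not be seen.

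At 500 µg/mL the extracts differed in 2646 of 17368 genes tested (15.2%), of which 1424 were higher with Polygalae (8.2% of genes tested) and 1222 lower (7.04%). Genes were compared by the quasi-likelihood test of edgeR and called at a Benjamini-Hochberg adjusted p under 0.05 over all genes. Most differences were small: the median absolute log2 difference of the called genes was 0.26. At least 2-fold differences were fewer, with 69 genes higher (0.397%) and 39 lower (0.225%). Of these 39 lower genes, 36 had a mean under 1 CPM. Among genes with at least 5 CPM, 27 were at least 2-fold higher and 1 was at least 2-fold lower. The 3 libraries of each extract did not overlap in 5627 genes (32.4%), 2874 with all Polygalae libraries higher (16.5%) and 2753 with all lower (15.9%), so a lack of overlap by itself was common. With upper-quartile scaling in place of TMM, 1174 genes were higher and 1562 lower, so the balance between the directions depends on the scaling.

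The largest rises among well-measured genes were led by enzymes of amino sugar and sialic acid handling and by a Rag GTPase. UAP1L1 (chr9:137077501-137084539, + strand), a paralog of the UDP-N-acetylglucosamine pyrophosphorylase, had 31.8, 30.8 and 30.3 CPM with Polygalae, against 7.35, 6.998 and 7.103 CPM with Aucklandiae, a log2 difference of 2.12 ± 0.078 (SE; edgeR adjusted p = 1.6e-30). RRAGD (chr6:89364636-89412270, - strand), a Rag GTPase that carries nutrient signals to the kinase mTORC1, had 8.3003, 7.63 and 8.26 CPM with Polygalae, against 1.73, 2.22 and 2.08 CPM with Aucklandiae (1.995 ± 0.14, edgeR adjusted p = 1.6e-18). NEU1 (chr6:31857659-31862906, - strand), the lysosomal sialidase, had 51.9, 53.3 and 58.4 CPM with Polygalae, against 14.5, 16.7 and 15.3 CPM with Aucklandiae (1.81 ± 0.056, edgeR adjusted p = 1.1e-33). For each of these genes the lowest Polygalae library was more than 3 times the highest Aucklandiae library. HSD17B14, a hydroxysteroid dehydrogenase, had 15.4, 15.99 and 16.5 CPM with Polygalae, against 4.297, 4.71 and 4.11 CPM with Aucklandiae (1.86 ± 0.11). The other members of the 15 largest rises were the lysosomal glycoprotein CD68 (1.499 ± 0.14), MCTP1 (1.45 ± 0.10), MSMO1 (1.36 ± 0.051), GNPDA1 (1.27 ± 0.048), MVD (1.26 ± 0.063), FLCN (1.25 ± 0.054), STX3 (1.22 ± 0.08), INSIG1 (1.21 ± 0.044), HS1BP3 (1.204 ± 0.048), NPC2 (1.19 ± 0.06) and FNIP1 (1.13 ± 0.053), with edgeR adjusted p from 6.4e-31 to 4.5e-12. Most of these belong to the lysosomal, amino sugar and sterol groups described next.

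The largest falls were smaller and more mixed. SULT2B1 (chr19:48552075-48599425, + strand), a sulfotransferase that conjugates cholesterol and other sterols, had 11.5, 12.6 and 10.5 CPM with Polygalae, against 23.3, 24.2 and 21.96 CPM with Aucklandiae (2-fold lower, SE of the log2 difference 0.076, edgeR adjusted p = 1.7e-16). ABCA1 (chr9:104781002-104928237, - strand), the pump that loads cellular cholesterol onto lipoproteins, had 9.14, 8.48 and 8.15 CPM with Polygalae, against 17.6, 15.7 and 16.5 CPM with Aucklandiae (−0.95 ± 0.095, edgeR adjusted p = 4.8e-12). ANGPTL4, a secreted inhibitor of lipoprotein lipase, had 15.1, 15.4 and 18.5 CPM with Polygalae, against 28.7, 30.9 and 29.8 CPM with Aucklandiae (−0.88 ± 0.066, edgeR adjusted p = 1.4e-16). In all of these, each Polygalae library lay under each Aucklandiae library, which was a condition for entering the 15 largest falls. The Wnt antagonist SFRP4 (−0.94 ± 0.10), the monoamine transporter SLC29A4 (−0.91 ± 0.066), the metalloproteinase inhibitor TIMP3 (−0.899 ± 0.11), the membrane protein FLRT2 (−0.87 ± 0.087) and the rhomboid family member RHBDL3 (−0.805 ± 0.083) followed. Enzymes of amino acid metabolism came next, with cystathionine beta-synthase CBS (−0.76 ± 0.065) and PHGDH (−0.76 ± 0.045), and so did the growth factor IGF2 (−0.76 ± 0.13). DCDC1 (−0.73 ± 0.10), keratin KRT4 (−0.72 ± 0.054) and the desmosome-associated protein PPL (−0.69 ± 0.14) closed the 15, together with AP002761.4 (−0.73 ± 0.10), a transcript that overlaps another gene on the same strand and whose reads may be shared with it.

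**Figure D1:**
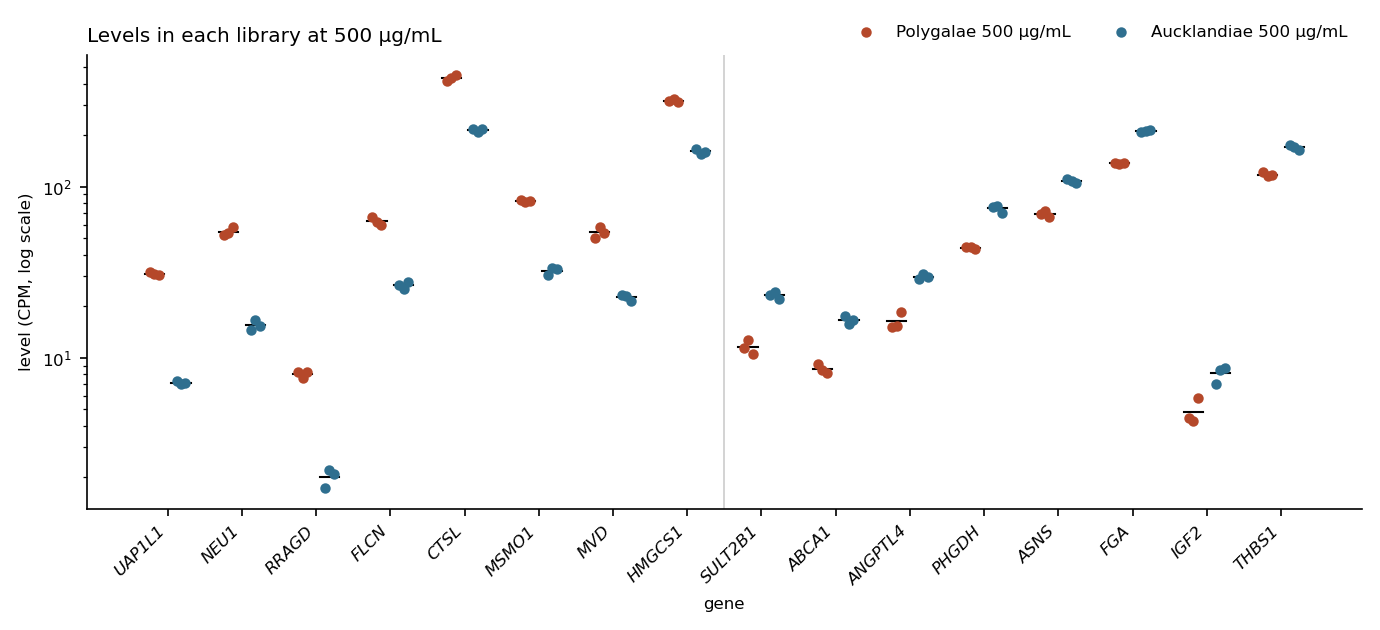
Levels in CPM (log axis) of 16 genes in each library, with Polygalae 500 at the left of each pair, Aucklandiae 500 at the right and a black bar at the mean of 3 libraries. The 8 genes left of the grey line were higher and the 8 right of it lower with Polygalae 500, and in none of the 16 did the libraries of the 2 groups overlap.

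Genes of the lysosome rose with Polygalae relative to Aucklandiae in the membrane and in the lumen, though not in every hydrolase. Of 35 lysosomal hydrolases and activators tested, 17 were higher, 2 lower and 16 not called, with a median log2 difference of 0.12 against −0.0027 over all genes tested. Here and in later lists, members other than those with the smallest p were named after their values were seen. Cathepsin L, CTSL, a lysosomal cysteine protease, had 413, 434 and 447 CPM with Polygalae, against 218, 209 and 219 CPM with Aucklandiae (1.004 ± 0.035, edgeR adjusted p = 1.2e-31). The acid ceramidase gene ASAH1 had 92.98, 93.6 and 95.3 CPM with Polygalae, against 58.9, 60.2 and 60.02 CPM with Aucklandiae (0.65 ± 0.039). NAGLU, which removes N-acetylglucosamine from heparan sulfate, was at 0.61 ± 0.05, and the ganglioside activator GM2A at 0.55 ± 0.05. In none of these hydrolases did the groups overlap. The hydrolases that were lower were alpha-mannosidase MAN2B1 (−0.15 ± 0.048) and the fucosidase FUCA1 (−0.24 ± 0.079, adjusted p = 0.027). The MAN2B1 call was lost without Polygalae replicate 1 or Aucklandiae replicate 1 or 3 (adjusted p 0.051 to 0.23), and that of FUCA1 without Polygalae replicate 2 or Aucklandiae replicate 2 or 3 (0.0771 to 0.145). The 16 hydrolases without a call lay between −0.16 and 0.12, among them alpha-galactosidase GLA (0.06 ± 0.038), beta-glucuronidase GUSB (−0.09 ± 0.056) and cathepsin CTSZ (−0.05 ± 0.038).

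Lysosomal membrane proteins moved more evenly: 15 of 21 were higher and 0 lower, with a median of 0.33. The sialic acid exporter SLC17A5 had 20.1, 18.3 and 18.1 CPM with Polygalae, against 8.88, 8.21 and 8.88 CPM with Aucklandiae (1.13 ± 0.086, edgeR adjusted p = 2.1e-16). The sterol carriers of the lysosome were higher too, NPC2 in the lumen at 75.1, 71.7 and 75.4 CPM with Polygalae, against 31.7, 32.1 and 33.3 CPM with Aucklandiae (1.19 ± 0.06) and its membrane partner NPC1 at 97.9, 98.7 and 97.2 CPM with Polygalae, against 60.4, 60.9 and 63.6 CPM with Aucklandiae (0.67 ± 0.049). LAMP2, a structural glycoprotein of the membrane, was at 0.58 ± 0.033, the cystine exporter CTNS at 0.73 ± 0.067 and the calcium channel MCOLN1 at 0.396 ± 0.083. The 6 members without a call lay between −0.17 and 0.02. Of 15 subunits of the vacuolar ATPase, the proton pump that acidifies lysosomes, 13 were higher and 1 lower, with a median of 0.31. The range was narrow, from ATP6V1E1 at 77.4, 76.4 and 76.2 CPM with Polygalae, against 52.6, 53.5 and 53.7 CPM with Aucklandiae (0.52 ± 0.044) to the accessory subunit ATP6AP2 at 95.9, 98.6 and 93.5 CPM with Polygalae, against 103, 109 and 100.1 CPM with Aucklandiae (−0.12 ± 0.04), which was the lower one. The ATP6AP2 call was lost without Polygalae replicate 1 or 3 or Aucklandiae replicate 1 or 2 (adjusted p 0.0562 to 0.246).

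Genes of folliculin, its partner and the Rag GTPases had the largest rises among 22 autophagy and TFEB-folliculin regulators, of which 11 were higher and 4 lower (2 lower without Aucklandiae replicate 3). Folliculin, FLCN (chr17:17212212-17237188, - strand), the GTPase-activating protein for RagC and RagD, had 66.1, 62.03 and 60.1 CPM with Polygalae, against 26.5, 25.4 and 27.5 CPM with Aucklandiae (1.25 ± 0.054, edgeR adjusted p = 3.8e-27). Its partner FNIP1 had 58.7, 61.2 and 60.6 CPM with Polygalae, against 28.8, 26.9 and 27.02 CPM with Aucklandiae (1.13 ± 0.053, edgeR adjusted p = 1.7e-25). FNIP2, the alternative partner, was at 0.49 ± 0.084. RRAGC, the Rag GTPase closest to RRAGD, had 46.3, 45.5 and 49.2 CPM with Polygalae, against 22.8, 22.5 and 22.7 CPM with Aucklandiae (1.05 ± 0.053, edgeR adjusted p = 2.5e-24). SQSTM1, the autophagy receptor p62, had 1644, 1691 and 1683 CPM with Polygalae, against 889.6, 899.6 and 879 CPM with Aucklandiae (0.91 ± 0.031, edgeR adjusted p = 1.2e-31), and the receptor OPTN was at 0.61 ± 0.066. Members that were not called included the ATG8 family gene GABARAPL2 (0.04 ± 0.057) and the cargo receptor NBR1 (−0.03 ± 0.037). Of the genes of the transcription factors, TFEB had 2.75, 2.37 and 3.26 CPM with Polygalae, against 4.66, 4.37 and 3.898 CPM with Aucklandiae (−0.64 ± 0.13, adjusted p = 0.00016), and MITF was at −0.200 ± 0.068, a call that was lost without any 1 of 5 libraries (all but Polygalae replicate 1, adjusted p 0.0586 to 0.132). TFE3 was not called in the main fit, though it was in some alternatives. Like TFEB and MITF, the autophagy kinase ULK1 (−0.298 ± 0.043) and the receptor CALCOCO2 (−0.14 ± 0.036) were lower. The CALCOCO2 call was lost without Aucklandiae replicate 3 (edgeR adjusted p = 0.0768).

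Amino sugar metabolism was represented by a few strong members. Of 17 genes tested, 5 were higher and 1 lower. GNPDA1, which turns glucosamine 6-phosphate into fructose 6-phosphate, had 118, 121 and 123 CPM with Polygalae, against 49.1, 51.6 and 49.2 CPM with Aucklandiae (1.27 ± 0.048, edgeR adjusted p = 3.2e-30). AMDHD2, the deacetylase that acts just before it, was at 0.76 ± 0.10, the kinase NAGK at 0.39 ± 0.053 and GNE, which starts sialic acid synthesis, at 0.19 ± 0.033. The enzymes of the forward hexosamine pathway gave small differences that were not called: GFPT1 was at 0.08 ± 0.036, GNPNAT1 at −0.01 ± 0.032 and UAP1 at 0.12 ± 0.064. The O-GlcNAc transferase OGT was lower (−0.13 ± 0.044, adjusted p = 0.039), a call that was lost without Polygalae replicate 2 or 3 or Aucklandiae replicate 1 or 3 (0.0981 to 0.232).

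The E-box bound by TFEB reads CACGTG, and it was searched in promoter windows of RefSeq on GRCh38.p14 that run from 250 bases before to 50 bases after each annotated start. The motif is its own reverse complement, so both strands are covered. It was present in 8.77% of the 27305 genes with a window, in 12.3% of 11841 tested genes with one, in 23.8% of 1106 genes higher with Polygalae 500 and in 9.15% of 962 lower ones. The longer TCACGTGA, which contains it, was present in 2.13% of tested genes, 7.23% of those higher and 0.42% of those lower. The 5 lysosomal, autophagy and amino sugar lists held 84 genes with a window, 21 of them (25%) with CACGTG. Other lists had similar or higher shares of this short motif, with CACGTG in 46.7% of 15 ribosome biogenesis genes, 37.5% of 8 G1 cyclins and inhibitors, 33.3% of 12 amino acid transporters and 27.8% of 18 glycolysis genes. The longer TCACGTGA was present in 9 of the 84 genes (10.7%) and in 0 genes of each of these other lists. It was also present in 20% of 10 genes of the IGF list and in 12.5% of 8 sulfotransferases and glucuronosyltransferases. The NF-kB, BMP, MAPK, AP-1, p53, cholesterol and DNA replication lists had it in 4.76% to 8.33% of genes, 1 gene in each. The windows of FLCN, SQSTM1, CTSL and NPC2, all higher with Polygalae, held no CACGTG. These shares are a description. A gene can have more than 1 window (1.49 for genes higher, 1.58 for genes lower and 1.44 for genes tested). The windows of 3 strongly different genes are shown with CACGTG in capitals, chosen after the matches were known, NEU1 at chr6:31862772-31863071, minus strand, RRAGC at chr1:38859723-38860022, minus strand and FNIP1 at chr5:131796968-131797267, minus strand.
NEU1: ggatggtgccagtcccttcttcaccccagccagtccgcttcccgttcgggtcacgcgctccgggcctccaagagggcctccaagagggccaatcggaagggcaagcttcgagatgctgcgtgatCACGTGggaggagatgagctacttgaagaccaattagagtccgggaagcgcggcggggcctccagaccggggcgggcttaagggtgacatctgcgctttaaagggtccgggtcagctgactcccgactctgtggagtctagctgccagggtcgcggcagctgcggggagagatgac
RRAGC: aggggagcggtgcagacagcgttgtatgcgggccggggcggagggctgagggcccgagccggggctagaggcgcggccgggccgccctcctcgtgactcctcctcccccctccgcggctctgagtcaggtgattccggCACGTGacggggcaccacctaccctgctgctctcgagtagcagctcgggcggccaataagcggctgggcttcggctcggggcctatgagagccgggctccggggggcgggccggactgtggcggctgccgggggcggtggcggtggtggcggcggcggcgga
FNIP1: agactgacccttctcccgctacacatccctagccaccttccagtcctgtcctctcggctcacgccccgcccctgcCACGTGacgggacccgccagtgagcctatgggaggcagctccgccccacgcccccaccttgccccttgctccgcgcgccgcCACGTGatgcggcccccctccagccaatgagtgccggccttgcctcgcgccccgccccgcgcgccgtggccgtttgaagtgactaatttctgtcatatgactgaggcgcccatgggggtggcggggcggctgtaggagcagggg
Counting the base just before the start as −1, the match began at −126 in NEU1, at −112 in RRAGC and at −175 and −94 in FNIP1.

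Cholesterol synthesis had the highest share of called members among the 45 lists with at least 5 tested members. Of 25 genes tested, 24 were higher with Polygalae and 0 lower, with a median log2 difference of 0.76, and the counts were 24 and 0 in each of 11 alternatives. In these 24 genes each Polygalae library lay above each Aucklandiae library, and the rises spanned the pathway. HMGCS1, which makes HMG-CoA, had 317, 324 and 313 CPM with Polygalae, against 167, 155 and 160.2 CPM with Aucklandiae (0.98 ± 0.038, edgeR adjusted p = 6e-30). In the mevalonate steps, MVD had 50.4, 58.3 and 53.6 CPM with Polygalae, against 23.2, 23.05 and 21.4 CPM with Aucklandiae (1.26 ± 0.063) and FDPS had 189, 193 and 187 CPM with Polygalae, against 90.2, 91.2 and 88.9 CPM with Aucklandiae (1.08 ± 0.042). The squalene epoxidase gene SQLE had 223, 229 and 231 CPM with Polygalae, against 115, 115 and 121 CPM with Aucklandiae (0.96 ± 0.033, edgeR adjusted p = 1.2e-31). Among late enzymes, the sterol C4 oxidase MSMO1 (chr4:165327623-165343160, + strand) had 83.4, 81.9 and 82.3 CPM with Polygalae, against 30.3, 33.4 and 32.8 CPM with Aucklandiae (1.36 ± 0.051, edgeR adjusted p = 3.7e-30), and DHCR7, which makes cholesterol from its dehydro precursor, had 165, 176 and 170.3 CPM with Polygalae, against 94.7, 96.02 and 90.9 CPM with Aucklandiae (0.86 ± 0.035). The exception was phosphomevalonate kinase PMVK, at 19.2, 21.7 and 19.7 CPM with Polygalae, against 17.6, 19.8 and 19.9 CPM with Aucklandiae (0.08 ± 0.088, adjusted p = 0.62).

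The regulators of the same pathway differed among themselves. INSIG1, which holds SREBP in the endoplasmic reticulum and is itself a target of SREBP, had 85.7, 80.4 and 79.9 CPM with Polygalae, against 35.6, 35.1 and 35.4 CPM with Aucklandiae (1.21 ± 0.044, edgeR adjusted p = 6.4e-31). SREBF2, the gene of SREBP2, had 148, 156 and 154 CPM with Polygalae, against 116, 115 and 119 CPM with Aucklandiae (0.39 ± 0.04), whereas SREBF1, the gene of SREBP1, had 176, 184 and 171 CPM with Polygalae, against 222, 215 and 209 CPM with Aucklandiae (−0.28 ± 0.043, adjusted p = 7.3e-07) and was lower. The sterol regulatory element core TCACCCCAC, searched on both strands, was present in 1 of 18 cholesterol genes with a window (5.56%) against 0.53% of tested genes with one. That gene was SREBF2, whose window (chr22:41832855-41833154, plus strand) is shown with the match at −133 in capitals, next to the INSIG1 window (chr7:155297628-155297927, plus strand) with its CACGTG at −55 in capitals. CACGTG was present in 3 of 18 cholesterol genes with a window (16.7%), against 12.3% of tested genes with one.
SREBF2: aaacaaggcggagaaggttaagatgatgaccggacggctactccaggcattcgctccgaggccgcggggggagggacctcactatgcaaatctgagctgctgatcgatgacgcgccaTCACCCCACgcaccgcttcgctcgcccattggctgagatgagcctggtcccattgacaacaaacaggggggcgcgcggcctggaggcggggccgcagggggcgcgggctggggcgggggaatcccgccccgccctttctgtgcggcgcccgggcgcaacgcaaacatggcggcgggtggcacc
INSIG1: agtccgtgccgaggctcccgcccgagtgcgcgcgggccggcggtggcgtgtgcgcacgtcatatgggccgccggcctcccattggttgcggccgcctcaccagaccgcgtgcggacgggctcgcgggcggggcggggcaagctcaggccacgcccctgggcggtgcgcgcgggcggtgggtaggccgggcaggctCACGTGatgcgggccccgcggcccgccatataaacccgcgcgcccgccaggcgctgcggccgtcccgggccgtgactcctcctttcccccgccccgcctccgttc
TCACCCCAC was not found in the windows of the other 17 cholesterol genes, which says only that these letters are not there.

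Fatty acid genes divided by enzyme. Of 16 tested, 9 were higher and 2 lower, with a median of 0.25. The desaturases were higher: SCD had 1780.2, 1766 and 1751 CPM with Polygalae, against 1098, 1111 and 1040.3 CPM with Aucklandiae (0.71 ± 0.039, edgeR adjusted p = 2.1e-22), FADS1 had 556, 539 and 534 CPM with Polygalae, against 351, 357 and 353 CPM with Aucklandiae (0.62 ± 0.03) and FADS2 was at 0.67 ± 0.039. The acetyl-CoA synthetase ACSS2 (0.73 ± 0.055) and the phosphatidate phosphatase LPIN1 (0.48 ± 0.04) were higher too. The core enzymes of chain building gave values near 0: ACLY was at −0.02 ± 0.032 and FASN at 0.12 ± 0.054, both not called, and ACACA was lower at −0.15 ± 0.049, a call that was lost without any 1 of the 6 libraries (adjusted p 0.0589 to 0.0957). Among 9 LXR target and sterol efflux genes, 4 were lower and 1 higher. MYLIP, an E3 ubiquitin ligase induced by LXR, had 2.705, 3.34 and 3.37 CPM with Polygalae, against 5.14, 5.45 and 6.28 CPM with Aucklandiae (−0.84 ± 0.12, edgeR adjusted p = 7.4e-08), and LPCAT3, a phospholipid acyltransferase, was at −0.26 ± 0.052. ABCG1, another sterol pump, was lowly expressed, at 0.1399, 0.449 and 0.316 CPM with Polygalae, against 0.803, 0.707 and 1.13 CPM with Aucklandiae (−1.49 ± 0.36). APOE, the apolipoprotein that accepts effluxed cholesterol, went the other way at 10.2, 9.42 and 9.26 CPM with Polygalae, against 4.498, 4.21 and 4.68 CPM with Aucklandiae (1.11 ± 0.12, edgeR adjusted p = 2.7e-11). The LXR-beta gene NR1H2 was not called (0.06 ± 0.05).

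**Figure D2:**
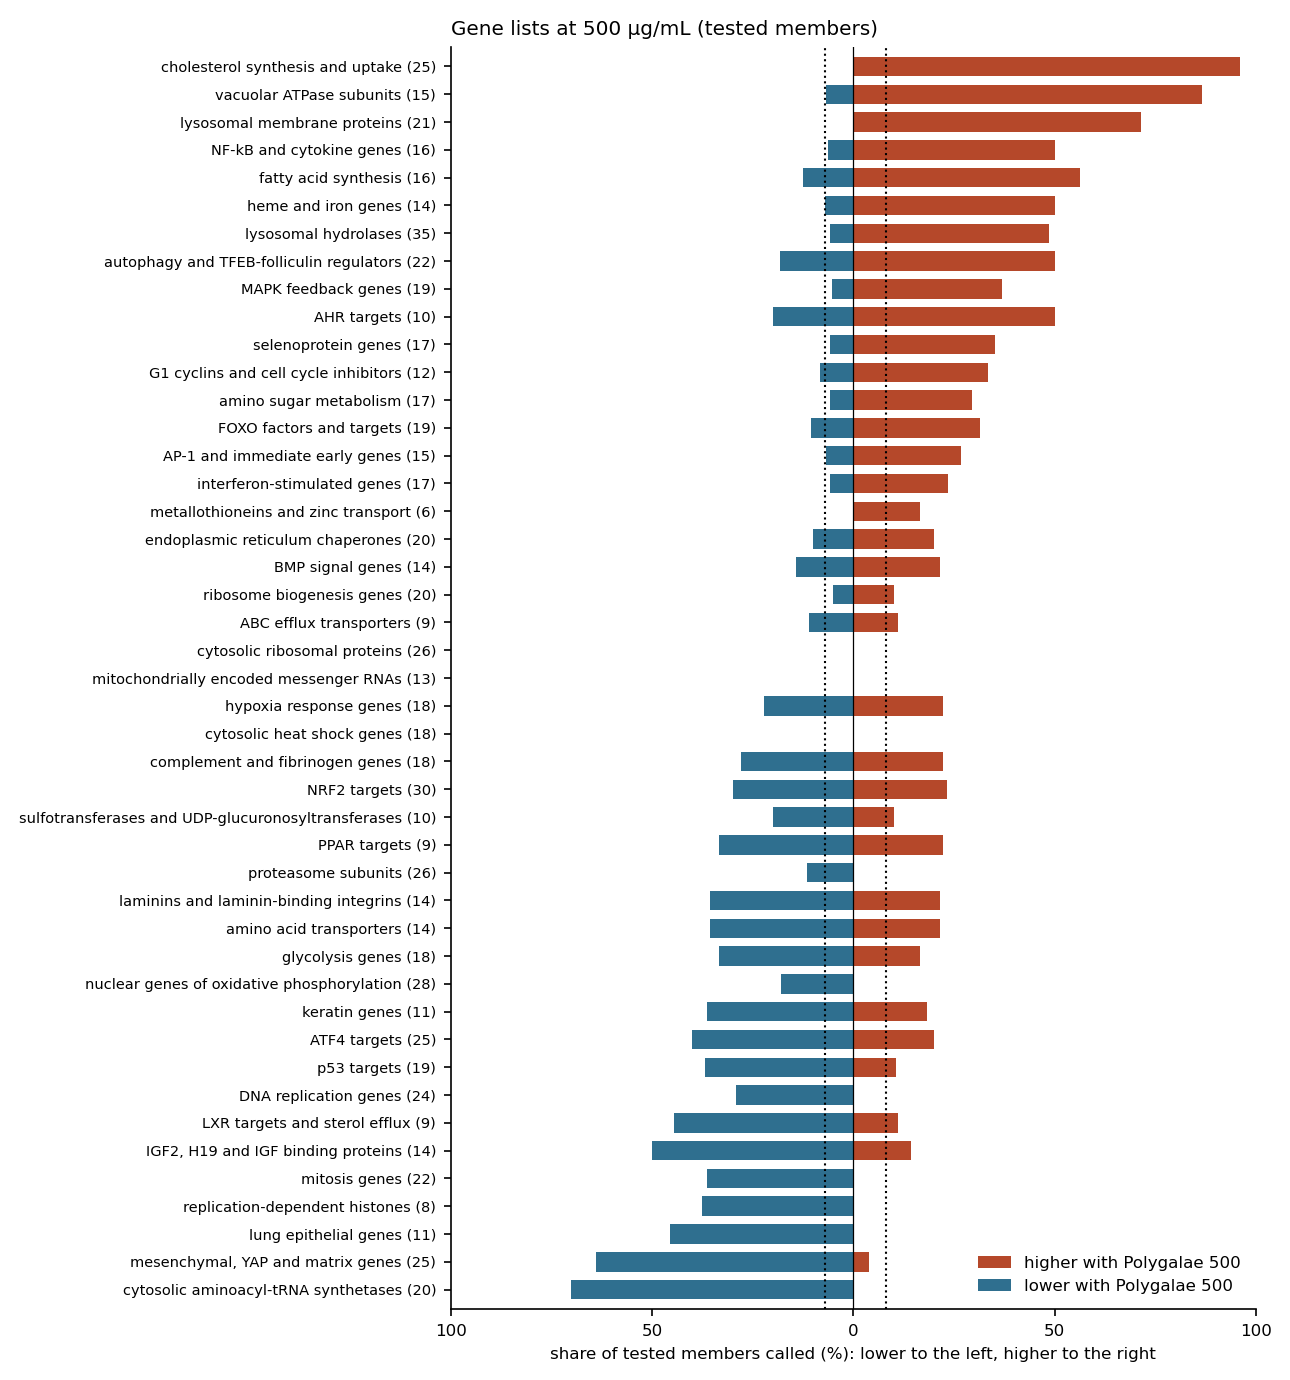
Share of tested members called higher (right, red) or lower (left, blue) with Polygalae 500 than with Aucklandiae 500 for 45 gene lists, with the number of tested members in brackets, ordered by the higher minus the lower share. Dotted lines mark the shares over all genes tested, 8.2% higher and 7.04% lower. Cholesterol synthesis and vacuolar ATPase subunits lie at the top, and matrix genes and cytosolic aminoacyl-tRNA synthetases at the bottom, while lists whose shares lie near the dotted lines differ no more often than genes at large.

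The same comparison at lower doses, in libraries that the 500 µg/mL comparison does not use, gave other proportions for the lysosomal than for the sterol genes. At 100 µg/mL, 1290 genes differed (7.43% of those tested), 866 higher (4.99%) and 424 lower (2.44%). Of these 1290, 1010 (78.3%) were called in the same direction at 500 µg/mL, which is 38.2% of the 2646 called there, and 0 in the opposite one. The lysosomal lists were called about as often at 100 as at 500 µg/mL: 19 of 35 hydrolases, 13 of 21 membrane proteins and 14 of 15 vacuolar ATPase subunits were higher, with medians of 0.15, 0.30 and 0.26. SLC17A5 differed by 1.14 ± 0.089 at 100 and 1.13 ± 0.086 at 500 µg/mL, and FNIP1 by 1.07 ± 0.054 and 1.13 ± 0.053. SQSTM1 differed by 0.81 ± 0.031 and 0.91 ± 0.031. Cholesterol genes were called nearly as often, 22 of 25 higher and 0 lower, but their median was 0.23 at 100 µg/mL against 0.76 at 500 µg/mL. MVD differed by 0.24 ± 0.066 at 100 and 1.26 ± 0.063 at 500 µg/mL, HMGCS1 by 0.23 ± 0.038 and 0.98 ± 0.038, and FDPS by 0.198 ± 0.043 and 1.08 ± 0.042.

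The change between these doses was then tested directly, as the difference at 500 minus the difference at 100 µg/mL, a test that was added after the data were seen. It called 135 genes (0.777%), 77 with a more positive (0.443%) and 58 with a more negative difference at 500 µg/mL (0.334%). Of the 77, 29 belonged to the cholesterol or fatty acid lists. For cholesterol genes 22 of 25 were called, all more positive, as were 7 of 16 fatty acid genes, with 1 of 16 (SREBF1) more negative. In contrast, 0 of 21 lysosomal membrane proteins, 0 of 15 vacuolar ATPase subunits and 0 of 22 autophagy and folliculin regulators were called by edgeR, and 2 of 35 hydrolases were, NEU1 (0.44 ± 0.082, adjusted p = 0.00063) and the acid lipase LIPA (0.23 ± 0.052, adjusted p = 0.012). Over all genes 0.777% were called, so 0 calls in lists of this size does not set them apart from genes at large. At an unadjusted edgeR p under 0.05, 5 of 21 membrane proteins, 1 of 15 vacuolar ATPase subunits and 3 of 22 regulators passed. So did 8 of 35 hydrolases and 24 of 25 cholesterol genes, against 1381 of 17368 genes tested. A gene of the lysosomal and autophagy lists without a call is not shown to be equal at both doses. For FLCN the change was 0.12 ± 0.078, with a 95% interval of −0.03 to 0.27, and for SLC17A5 −0.01 ± 0.12 with −0.26 to 0.23. ABCA1 differed by 0.01 ± 0.087 at 100 and −0.95 ± 0.095 at 500 µg/mL, a change of −0.95 ± 0.13 (edgeR adjusted p = 5e-07). MYLIP likewise differed by −0.03 ± 0.11 and −0.84 ± 0.12, a change of −0.81 ± 0.16 (edgeR adjusted p = 0.0017).

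**Figure D3:**
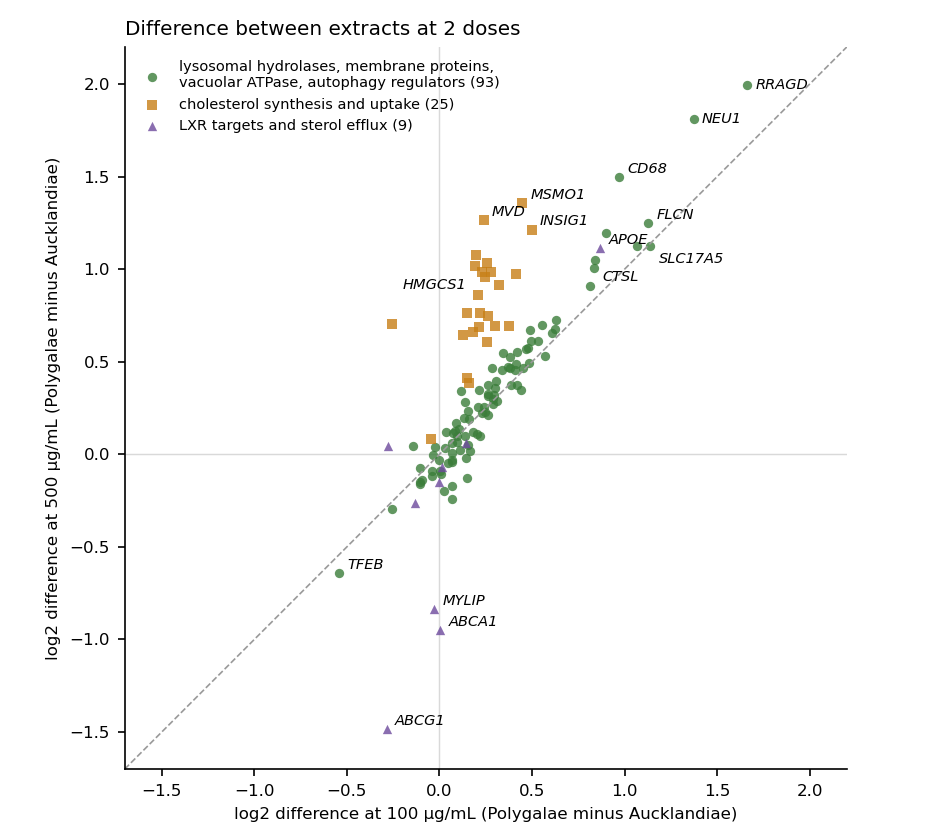
Log2 difference (Polygalae minus Aucklandiae) at 500 µg/mL on the vertical axis against that at 100 µg/mL on the horizontal axis, 1 point a gene, with numbers of genes in brackets and equal values on the dashed line. Lysosomal and autophagy genes (green circles) lie mostly near the line, cholesterol genes (orange squares) lie above it and the LXR targets ABCA1, MYLIP and ABCG1 (purple triangles) lie below it.

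At 20 µg/mL, 675 genes were called (3.89%), 348 higher (2%) and 327 lower (1.88%), but this count rested on single libraries. Without replicate 1 of Polygalae 20, which stood apart from its replicates (SD of log2 deviations 0.269 against 0.169 and 0.175), 5 genes passed, and in the 6 libraries alone 0 passed with edgeR (824 at an unadjusted p under 0.05, and 1235 with DESeq2 on all libraries). Without replicate 2 of Aucklandiae 20, 17 passed. In the full fit SQSTM1 differed by 0.32 ± 0.031 and FLCN by 0.33 ± 0.059 at this dose, and 0 of 25 cholesterol genes were called. With 3.89% of all genes called, 0 calls in a list of 25 does not set it apart from genes at large. The slope difference, the change of the log2 difference per 5-fold dose step between 20 and 500 µg/mL, was called in 1582 genes (9.11%), positive in 944 (5.44%) and negative in 638 (3.67%). It shares the 500 µg/mL libraries with the main comparison and 439 genes passed in its 12 libraries alone. It was positive and called in 24 of 25 cholesterol genes, and for UAP1L1 it was 0.93 ± 0.06. Positive calls were not limited to sterol genes. They were made in 12 of 16 fatty acid genes (1 negative), 13 of 21 lysosomal membrane proteins and 15 of 35 hydrolases. So they were in 7 of 15 vacuolar ATPase subunits and 9 of 22 autophagy and folliculin regulators (1 negative).

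**Figure D4:**
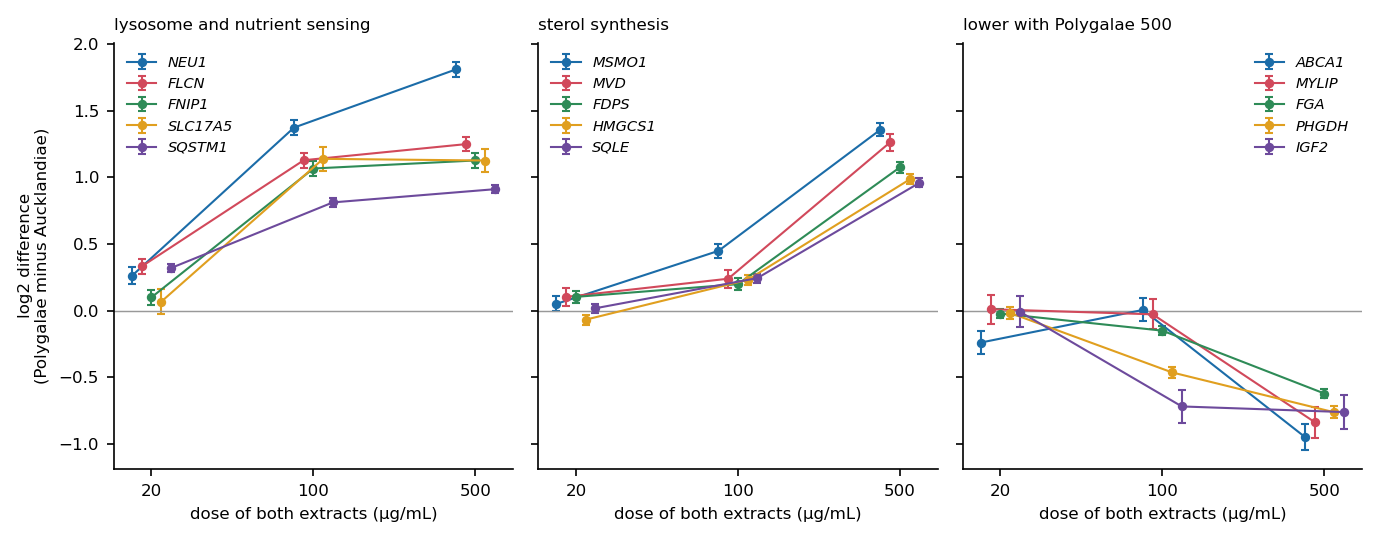
Log2 difference (Polygalae minus Aucklandiae) with its SE against the dose of both extracts, 20, 100 and 500 µg/mL, for 5 genes in each panel, from the fit of all libraries. The SE uses 1 spread a gene for all groups. It does not show the larger deviations of the Polygalae 20 libraries (SD 0.269, 0.169 and 0.175, against 0.116, 0.101 and 0.114 for Polygalae 500). At 100 µg/mL FLCN, FNIP1 and SLC17A5 were above 1, the 5 sterol synthesis genes lay between 0.20 and 0.45, and ABCA1 and MYLIP lay near 0.

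Targets of ATF4 went both ways. ATF4 is the transcription factor of the integrated stress response, which raises both amino acid synthesis and stress genes. Of 25 targets tested, 10 were lower and 5 higher. PHGDH, the first enzyme of serine synthesis, had 44.4, 44.6 and 43.1 CPM with Polygalae, against 76.1, 77.4 and 70.4 CPM with Aucklandiae (−0.76 ± 0.045, edgeR adjusted p = 3.6e-21), and asparagine synthetase ASNS had 69.6, 72.4 and 66.7 CPM with Polygalae, against 110.2, 108 and 106 CPM with Aucklandiae (−0.63 ± 0.05, edgeR adjusted p = 1e-15). CHAC1, which degrades glutathione, had 3.68, 3.59 and 2.89 CPM with Polygalae, against 5.62, 5.75 and 5.37 CPM with Aucklandiae (−0.71 ± 0.12), and the stress-induced mTORC1 inhibitor SESN2 had 9.51, 8.85 and 8.84 CPM with Polygalae, against 14.9, 12.8 and 13.2 CPM with Aucklandiae (−0.58 ± 0.069). The mitochondrial enzymes PCK2 (−0.63 ± 0.055) and ALDH1L2 (−0.64 ± 0.065) and the serine enzyme PSAT1 (−0.45 ± 0.04) were lower as well. In the other direction, the pseudokinase TRIB3 had 113, 108 and 114 CPM with Polygalae, against 61.8, 66.9 and 61.1 CPM with Aucklandiae (0.82 ± 0.046, edgeR adjusted p = 2.6e-22), the cytokine GDF15 had 36.8, 42.7 and 40.5 CPM with Polygalae, against 22.5, 24.2 and 22.04 CPM with Aucklandiae (0.801 ± 0.057) and the factor CHOP, DDIT3, had 11.8, 14.03 and 11.5 CPM with Polygalae, against 9.04, 8.28 and 8.62 CPM with Aucklandiae (0.53 ± 0.092). In these genes the libraries of the groups did not overlap, which for PHGDH was a condition of entering the 15 largest falls. ATF4 itself was at 0.02 ± 0.038 and not called.

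Of 20 cytosolic aminoacyl-tRNA synthetases, 14 were lower and 0 higher, with a median of −0.15. The bifunctional EPRS1 had 193, 188 and 199.5 CPM with Polygalae, against 258, 256 and 254 CPM with Aucklandiae (−0.402 ± 0.029, edgeR adjusted p = 3.1e-17) and MARS1 had 215, 217 and 224 CPM with Polygalae, against 286, 286 and 277 CPM with Aucklandiae (−0.37 ± 0.031). EPRS1 had the largest difference in this list, so each was small beside those of PHGDH and ASNS. At 100 µg/mL 10 of the 20 were lower and 0 higher. Of 14 amino acid transporters, 5 were lower, among them the neutral amino acid carrier SLC1A4 (−0.58 ± 0.051), the glycine carrier SLC6A9 (−0.57 ± 0.10), SLC43A2 (−0.38 ± 0.061) and the glutamine carrier SLC1A5 (−0.27 ± 0.034), and 3 were higher, among them SLC7A7 (0.47 ± 0.074).

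Most of the matrix genes listed were lower with Polygalae. Of 25 mesenchymal, YAP and matrix genes, 16 were lower and 1 higher (2 without Polygalae replicate 3), with a median of −0.23. Thrombospondin THBS1 had 121, 115 and 117 CPM with Polygalae, against 176, 169.7 and 164 CPM with Aucklandiae (−0.53 ± 0.041, edgeR adjusted p = 4.1e-16), and fibronectin FN1 had 788, 783 and 873 CPM with Polygalae, against 1076, 1079.5 and 1269 CPM with Aucklandiae (−0.49 ± 0.095). The YAP target CCN2 was lower (−0.42 ± 0.06) while ANKRD1, also a YAP target, was the higher member at 18.98, 16.9 and 21.1 CPM with Polygalae, against 12.7, 10.7 and 12.3 CPM with Aucklandiae (0.67 ± 0.08). A fibroblast collagen among the other-cell markers, COL3A1, was lower too (−0.54 ± 0.12), and the 14 other-cell markers had a lower sum with Polygalae, as given above. COL3A1 itself made up most of that sum, with 3.47 to 4.29 CPM with Polygalae and 5.18 to 6.32 CPM with Aucklandiae. The part of other cells in the matrix result was not tested.

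The fibrinogen chains, acute-phase genes that A549 cells express, were lower together, with no overlap between the groups. FGA had 138, 136 and 138 CPM with Polygalae, against 209, 211 and 213 CPM with Aucklandiae (−0.62 ± 0.032, edgeR adjusted p = 6.4e-24), FGB had 133, 133 and 144 CPM with Polygalae, against 202, 207 and 224 CPM with Aucklandiae (−0.62 ± 0.042) and FGG had 94.7, 91.6 and 96.8 CPM with Polygalae, against 126, 130.0 and 133 CPM with Aucklandiae (−0.46 ± 0.041). At 100 µg/mL FGA differed by −0.15 ± 0.031, and the change between doses was −0.47 ± 0.045 (edgeR adjusted p = 9.4e-12). In the list of 18 complement and fibrinogen genes, 5 were lower and 4 higher, with the complement inhibitor CD55 at 0.42 ± 0.048. C3 had 27.2, 26.1 and 29.8 CPM with Polygalae, against 23.3, 24.2 and 27.8 CPM with Aucklandiae and was not called (0.14 ± 0.092, adjusted p = 0.36). In the IGF list 7 of 14 were lower and 2 higher, with 3 lower without Polygalae replicate 1. IGF2, a growth factor of the insulin family, had 4.43, 4.24 and 5.79 CPM with Polygalae, against 7.07, 8.44 and 8.75 CPM with Aucklandiae (−0.76 ± 0.13), IGFBP5 had 9.05, 11.2 and 10.2 CPM with Polygalae, against 14.8, 14.8 and 14.3 CPM with Aucklandiae (−0.52 ± 0.091) and the imprinted RNA H19 had 60.9, 67.01 and 76.6 CPM with Polygalae, against 79.998, 83.1 and 98.8 CPM with Aucklandiae (−0.36 ± 0.11, adjusted p = 0.026). The H19 call was lost without Polygalae replicate 1 (adjusted p = 0.157) or 2 (0.082), without Aucklandiae replicate 3 (0.188), with 18 libraries (0.192) and with the 6 alone (0.167). IGF2R, a receptor that also carries hydrolases to lysosomes, had 177, 182 and 190.5 CPM with Polygalae, against 128, 126 and 125 CPM with Aucklandiae (0.53 ± 0.061, edgeR adjusted p = 2.6e-09).

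Epithelial genes were lower in part. Of 11 lung epithelial genes tested, 5 were lower and 0 higher, among them E-cadherin CDH1 (−0.26 ± 0.056) and the tight junction gene CLDN4 (−0.97 ± 0.18). The count fell to 3 lower without Polygalae replicate 1 or 3, and with 18 libraries. Of 11 keratins, 4 were lower and 2 higher. The 2 higher became 1 without Polygalae replicate 1 or 3 or Aucklandiae replicate 2 or 3. KRT4 had 25.97, 25.001 and 26.5 CPM with Polygalae, against 42.2, 41.9 and 42.96 CPM with Aucklandiae (−0.72 ± 0.054) and KRT19 had 29.2, 28.5 and 32.5 CPM with Polygalae, against 23.4, 24.7 and 22.9 CPM with Aucklandiae (0.34 ± 0.062). Laminins and their integrins had 5 lower and 3 higher members of 14, with ITGB4 at −0.33 ± 0.066 and ITGA3 at 0.18 ± 0.035.

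Oxidative stress genes went both ways. Of 30 NRF2 targets, 9 were lower and 7 higher. Heme oxygenase HMOX1 had 230.3, 252 and 238 CPM with Polygalae, against 189.6, 197 and 177 CPM with Aucklandiae (0.35 ± 0.043, edgeR adjusted p = 1.7e-09), and the quinone reductase NQO1 had 1435, 1473 and 1469 CPM with Polygalae, against 1552, 1590.0 and 1607 CPM with Aucklandiae (−0.12 ± 0.04, adjusted p = 0.033). The NQO1 call was lost without any 1 of 5 libraries (all but Aucklandiae replicate 1, adjusted p 0.0585 to 0.123). The thioredoxin reductase TXNRD1 was higher (0.199 ± 0.034) and the pentose phosphate enzyme TKT (−0.22 ± 0.026) was lower. Of 14 heme and iron genes, 7 were higher and 1 lower, with upper-quartile scaling 4 and 1. Without Aucklandiae replicate 1 they were 4 and 0, and without Polygalae replicate 1 or Aucklandiae replicate 3 none was lower. The ferritin light chain FTL was at 0.41 ± 0.057 and the heme exporter FLVCR1 at 0.33 ± 0.053. Ferritins have pseudogene copies, so their values are uncertain. Among 17 selenoprotein genes 6 were higher and 1 lower, with GPX1, a glutathione peroxidase, at 70.4, 78.6 and 75.6 CPM with Polygalae, against 52.97, 55.6 and 53.4 CPM with Aucklandiae (0.47 ± 0.074). The lower call was lost without Polygalae replicate 1 or 2 or Aucklandiae replicate 2 or 3.

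Some targets of ligand-activated receptors and of NF-kB rose. Of 10 AHR targets, 5 were higher and 2 lower. CYP1B1, an aryl hydrocarbon-induced oxidase, had 150.2, 148 and 144 CPM with Polygalae, against 94.4, 94.6 and 89.4 CPM with Aucklandiae (0.67 ± 0.045, edgeR adjusted p = 1.8e-18), and TIPARP was at 0.44 ± 0.049. With any 1 library left out other than Aucklandiae replicate 1, 1 AHR target was lower. CYP1A1 had 1.21, 1.63 and 1.74 CPM with Polygalae, against 1.16, 1.48 and 1.26 CPM with Aucklandiae and was not called (0.22 ± 0.21, adjusted p = 0.58). Of 9 PPAR targets 2 were higher and 3 lower, with the lipid droplet coat PLIN2 at 28.9, 31.4 and 32.6 CPM with Polygalae, against 14.9, 15.1 and 13.7 CPM with Aucklandiae (1.08 ± 0.06, edgeR adjusted p = 2.8e-22) on one side and ANGPTL4 on the other. Of 16 NF-kB and cytokine genes, 8 were higher and 1 lower. The chemokine CXCL5 had 81.5, 78.999 and 83.7 CPM with Polygalae, against 38.5, 39.7 and 44.95 CPM with Aucklandiae (0.99 ± 0.057, edgeR adjusted p = 5.2e-21), and CXCL8, at low levels, had 1.399, 2.08 and 1.58 CPM with Polygalae, against 0.562, 0.673 and 0.5197 CPM with Aucklandiae (1.52 ± 0.24). The chemokines CXCL1 (1.45 ± 0.26) and CXCL2 (0.97 ± 0.16) were higher as well. NFKB2 was the lower member (−0.16 ± 0.057, adjusted p = 0.039), a call that was lost without any 1 of the 6 libraries (adjusted p 0.0546 to 0.172) and with 18 libraries (0.0627). Interferon-stimulated genes had 4 higher and 1 lower of 17, with IFIT3 at 0.91 ± 0.18. Without Polygalae replicate 3 there were 2 higher, and without Polygalae replicate 1 or Aucklandiae replicate 3 there were 0 lower.

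Growth-signal genes gave modest differences. Of 19 MAPK feedback genes 7 were higher and 1 lower, led by the phosphatases DUSP4 at 197, 205 and 202 CPM with Polygalae, against 133, 135 and 136 CPM with Aucklandiae (0.58 ± 0.029, edgeR adjusted p = 3.1e-24) and DUSP5 (0.67 ± 0.036). Of 15 AP-1 and immediate early genes 4 were higher and 1 lower, with the nuclear receptor NR4A1 at 0.41 ± 0.086 and JUNB at −0.47 ± 0.063. Of 19 FOXO factors and targets 6 were higher and 2 lower, led by KLHL24 at 13.01, 13.5 and 14.2 CPM with Polygalae, against 7.51, 8.11 and 7.45 CPM with Aucklandiae (0.81 ± 0.084), and 1 was lower without Polygalae replicate 2 or Aucklandiae replicate 1 or 3. BMP signal genes had 3 higher and 2 lower of 14, with ID3 at 0.27 ± 0.056. These BMP counts rested on single libraries, with 1 higher and 0 lower without Polygalae replicate 1, 1 and 1 without Aucklandiae replicate 2, and 1 lower without Polygalae replicate 3. With the 6 libraries alone they were 5 and 0.

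Some cell cycle genes were slightly lower. Of 22 mitosis genes 8 were lower and 0 higher, with a median of −0.11, and 5 were lower without Polygalae replicate 1. The spindle checkpoint activator CDC20 had 131, 136 and 129.7 CPM with Polygalae, against 163, 159.7 and 156 CPM with Aucklandiae (−0.27 ± 0.031, edgeR adjusted p = 2.4e-10) and the kinesin KIF20A was at −0.32 ± 0.038. MKI67, a marker of cycling cells, had 689, 662 and 702 CPM with Polygalae, against 771, 759 and 787 CPM with Aucklandiae and was not called (−0.17 ± 0.088, adjusted p = 0.2). Of 24 DNA replication genes 7 were lower and 0 higher, with RRM1 at −0.18 ± 0.027. Replication-dependent histones had 3 lower and 0 higher of 8, and 1 lower without Polygalae replicate 1. Among 12 G1 cyclins and inhibitors 4 were higher and 1 lower, with CDK4 at 0.31 ± 0.055 and CCND1, not called, at −0.06 ± 0.034. Of these, 2 were higher without Polygalae replicate 2, and 0 were lower without replicate 1 or 2 of either extract. Of 19 p53 targets 7 were lower and 2 higher, with the ferredoxin reductase FDXR at −0.37 ± 0.059 and PLK2 at 0.33 ± 0.039.

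Energy metabolism differed in few genes by much. Of 18 glycolysis genes 6 were lower and 3 higher. Those lower included ENO1 (−0.17 ± 0.035) and PKM (−0.14 ± 0.029). The aldolase and enolase isoforms best known from nervous tissue were higher, ALDOC at 5.92, 6.65 and 5.73 CPM with Polygalae, against 1.61, 1.48 and 1.86 CPM with Aucklandiae (1.896 ± 0.15, edgeR adjusted p = 1.6e-15) and ENO2 at 59.9, 53.8 and 56.6 CPM with Polygalae, against 30.8, 29.3 and 30.01 CPM with Aucklandiae (0.92 ± 0.049). ALDOC differed by 0.18 ± 0.17 at 100 µg/mL, so its change between doses was 1.71 ± 0.23 (edgeR adjusted p = 3.9e-07). Hypoxia response genes had 4 higher and 4 lower of 18, with the glucose transporter SLC2A3 at 0.56 ± 0.046 and PFKFB3 at −0.23 ± 0.03. The 4 higher became 1 without Aucklandiae replicate 2 and 2 without Polygalae replicate 2. Of 28 nuclear genes of oxidative phosphorylation 5 were lower and 0 higher.

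The remaining lists gave few or no calls. With edgeR, 0 of 26 cytosolic ribosomal proteins, 0 of 13 mitochondrially encoded messenger RNAs and 0 of 18 cytosolic heat shock genes were called, and DESeq2 called 0, 0 and 1. At an unadjusted p under 0.05 the counts were 0, 0 and 3. Endoplasmic reticulum chaperones had 4 higher and 2 lower of 20, with calreticulin CALR at 0.26 ± 0.033 and XBP1 at −0.32 ± 0.076. Proteasome subunits had 3 lower of 26, ribosome biogenesis genes 2 higher and 1 lower of 20, ABC efflux transporters 1 of each among 9, sulfotransferases and glucuronosyltransferases 1 higher and 2 lower of 10, and metallothioneins and zinc transport genes 1 higher of 6. Without Aucklandiae replicate 2, 3 ABC efflux transporters were lower and 0 metallothionein and zinc transport genes higher, and without Polygalae replicate 3, 1 heat shock gene was lower. Of the 3 other-cell markers that passed the filter on low counts, 1 was lower.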

How the data were processed

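A549 RNA (RNA integrity number above 7) was sequenced from a strand-specific library kit as paired reads of 100 bases, per the labels' protocols. The deposited table gives expected counts for 60675 Ensembl genes, not scaled for depth, and 10.7% of its values are not whole. The authors used FastQC 0.11.9, Trim Galore 0.6.5, STAR 2.7.3a and RSEM 1.3.3 with GRCh38 (hg38), per the submitters' processing notes. Not given in the sources used here were the annotation release and the strand setting. Overlapping and near-identical genes are therefore uncertain.

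Expected counts were rounded to whole numbers and filtered with filterByExpr over the 20 groups, which left 17368 genes (118 without a symbol). edgeR 4.0.16 (R 4.3.3) fitted all 60 libraries with TMM scaling, 1 mean a group and robust quasi-likelihood dispersion, so that the comparison borrows its spread from all groups. Tests were two-sided, with Benjamini-Hochberg adjustment over all genes tested. CPM use the TMM-scaled totals, and SE of a log2 difference is its size over the square root of F. Alternatives were DESeq2 1.42.0, RLE and upper-quartile scaling, other filters, fewer libraries, a replicate block and leaving out each library. The scripts were tested on simulated counts.

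The genes named are the 15 largest rises and 15 largest falls with at least 5 CPM and no overlap of the groups, up to 4 called members of each of 46 lists by p, and a panel. Further list members were named after their values were seen, and a few list and panel members are not reported here. Members, lists and panel were chosen with earlier results of these data known. Gene positions are those of GENCODE 29 on GRCh38. The labels do not say whether replicates are separate cultures, and p-values then cover only the spread between these samples, which may be technical. The vehicle and the other extracts entered only the fit of the spread.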

Additional observations from a re-analysis of the deposited data

Results flagged for a closer look

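The difference between the extracts changed with dose in many genes, which is why the following values are given. Groups held 3 libraries, too few to test a single library as standing apart.

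As the difference at 500 minus the difference at 100 µg/mL, a contrast added after the data were seen, edgeR called 135 genes, among them 8 of the 25 genes of the panel reported here. The log2 change was 0.44 for NEU1, 0.71 for SQLE, 0.75 for HMGCS1 and 0.43 for SCD. It was 0.38 for TRIB3 and 1.35 for CXCL8, while ABCA1 changed by −0.95 and SULT2B1 by −0.52.

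As a slope per 5-fold dose step between 20 and 500 µg/mL, edgeR called 1582 genes, among them 18 of the 25 panel genes. More positive with rising dose were UAP1L1 (0.93), NEU1 (0.77), HMGCS1 (0.53), CXCL8 (0.5), SQLE (0.47), FLCN (0.46), SCD (0.41), TRIB3 (0.36), SQSTM1 (0.3) and HMOX1 (0.1). More negative were SULT2B1 (−0.49), ANGPTL4 (−0.48), IGF2 (−0.38), ABCA1 (−0.35), ASNS (−0.31), IGFBP5 (−0.2), THBS1 (−0.17) and NQO1 (−0.12). The slope uses Polygalae 20, whose replicate 1 stood apart, and without that library 1255 genes were called.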

How the results depend on the processing

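At 500 µg/mL the count of 2646 genes kept within 1.5 times under each alternative, from 1806 (18 libraries) to 3030 (6 libraries alone), 2396 with DESeq2 and 2120 to 2202 with 1 library left out. At 100 µg/mL (1290) it was 811 with 18 libraries and 997 to 1066 with 1 left out, and its split of 866 higher and 424 lower became 763 and 581 with upper-quartile scaling. At 20 µg/mL (675) it was 1459 without a filter on low counts, 3 with 18 libraries, 0 with edgeR on the 6 libraries alone (824 at an unadjusted p under 0.05), 1235 with DESeq2 and 5 to 2880 with 1 left out (5 without Polygalae 20 replicate 1, 17 without Aucklandiae 20 replicate 2, 165 without Aucklandiae 20 replicate 1, 1890 and 2880 without Polygalae 20 replicates 2 and 3). The slope difference (1582) was called in 771 genes with 18 libraries, 439 with 12 libraries and 1218 to 2295 with 1 left out. Its split of 944 higher and 638 lower became 787 and 866 with upper-quartile scaling and 835 and 843 without a filter. The 500 minus 100 µg/mL contrast (135) gave 217 without a filter, 59 with 18 libraries and 97 to 122 with 1 left out. The cause of these shifts was not tested.

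Samples share only a replicate number: at 500 µg/mL same-numbered deviations correlated by 0.029, 0.031 and 0.116, and different-numbered ones by −0.084 to 0.042. Over the 18 libraries same-numbered pairs had a median of 0.05 (−0.14 to 0.284) and different-numbered pairs one of −0.0305 (−0.251 to 0.216). With a replicate block the counts were 2657, 1324, 734, 1635 and 142 in the order above, and with the block and 18 libraries 1868, 859, 4, 821 and 63. Of 3644 values of 243 single genes, 3518 stayed on their side of the threshold, 116 lost the call and 7 gained one (MKI67, TFE3 and AKR1B10 in 2 each, FASN in 1). ATF4, near 0 and not called, changed sign in 3, with −0.0050 under upper-quartile scaling and −0.0069 to 0.0406 with 1 library left out (below 0 without Polygalae 500 replicate 2 or Aucklandiae 500 replicate 3). Of list counts of at least 3, those moved by over 1.5 times were, as lowest to highest, lower genes of mitosis (5 to 12), DNA replication (4 to 9), NRF2 targets (5 to 11), IGF (3 to 7), laminins (3 to 5), lung epithelium (3 to 6), histones (1 to 4) and autophagy (2 to 5), and higher genes of NF-kB (5 to 8), heme and iron (4 to 7), interferon (2 to 4), BMP (1 to 5), hypoxia (1 to 4), G1 cyclins (2 to 4) and endoplasmic reticulum chaperones (2 to 5). Smaller counts moved in further lists. Medians changed sign for interferon (−0.01 to 0.16), hypoxia (−0.05 to 0.02), ribosomal protein (−0.04 to 0.01), ribosome biogenesis (−0.01 to 0.02) and ABC efflux genes (−0.03 to 0.05).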

Other observations

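Genes outside the lists, picked after their values were seen, differed at both doses or mainly at the higher one. Rises present at both 500 and 100 µg/mL included BRI3 (1.099 ± 0.059 at 500 and 0.84 ± 0.059 at 100 µg/mL), the prostaglandin E synthase PTGES (1.06 ± 0.061 and 0.83 ± 0.062), the small GTPase RAB29 (1.01 ± 0.074 and 0.85 ± 0.076) and the mitochondrial phospholipase PLD6 (1.09 ± 0.087 and 0.87 ± 0.087). RAB29, which acts on membranes of the Golgi and of stressed lysosomes, had 21.3, 22.3 and 22.2 CPM with Polygalae, against 10.5, 10.7 and 11.4 CPM with Aucklandiae. PTGES had 39.5, 43.4 and 40.8 CPM with Polygalae, against 19.2, 20.9 and 18.9 CPM with Aucklandiae. In both genes the groups did not overlap.

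Differences mainly at 500 µg/mL included PCYT2, which makes the head group of phosphatidylethanolamine (0.95 ± 0.062 at 500 and 0.38 ± 0.064 at 100 µg/mL), ERG28, a scaffold of sterol demethylation (0.75 ± 0.064 and 0.27 ± 0.067), the cobalamin enzyme MMAB (0.701 ± 0.048 and 0.16 ± 0.05) and the glucose transporter SLC2A6 (0.72 ± 0.065 and 0.11 ± 0.066). MMAB shares a bidirectional promoter with MVK, a cholesterol gene that was itself higher (0.92 ± 0.055). Lower genes included non-muscle myosin MYH9 (−0.49 ± 0.049 and −0.18 ± 0.049), talin TLN1 (−0.39 ± 0.045 and −0.12 ± 0.044) and plakoglobin JUP (−0.405 ± 0.043 and −0.11 ± 0.043). MYH9 had 546, 551 and 552 CPM with Polygalae, against 771, 786 and 756 CPM with Aucklandiae. These 7 genes were picked from those edgeR called for the 500 minus 100 µg/mL difference (adjusted p 1.3e-07 to 0.018). The call was therefore fixed by the choice and lends them no further weight.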
